A study of Mus musculus with 10 samples.

Results

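The CC chemokines described here are Ccl2, Ccl3, Ccl4, Ccl5, Ccl7, Ccl8, Ccl12, Ccl17, Ccl22 and Ccl24, 10 of the 14860 genes that had a probe set of their own. Each was taken as the probe set whose platform gene symbol is exactly that of the member, and each had 1 such probe set. They were followed in whole liver tissue from 10 male Balb/c animals, bought at an age of 8 weeks, of which 5 received carbon tetrachloride (CCl4) and 5 the oil vehicle for 6 weeks. By the study's account all were killed at the same interval after the last injection, and other times after a dose were not measured. The labels name no engineered allele in either group. CCl4 is a toxin that hepatocytes turn into a reactive radical, and repeated doses scar the liver. Carbon tetrachloride is written CCl4 throughout and the chemokine gene is written Ccl4. Each array held the RNA of 1 liver, so that hepatocytes, resident macrophages, infiltrating leukocytes and stellate cells were measured as a mixture. The defining hepatocyte markers Alb and Ttr were at 13.06 and 12.90 on the log2 scale in oil livers, and the fibrillar collagen genes Col1a1 and Col1a2 rose in CCl4 livers by 2.54 ± 0.39 and 2.55 ± 0.33 (SE; limma adjusted p = 0.0237 and 0.0108).

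Chemokines are small secreted proteins that direct the migration of leukocytes through receptors of the G-protein-coupled class, and the CC family is named for a pair of adjacent cysteines near the amino terminus. Ccl2, Ccl7, Ccl8 and Ccl12 belong to the monocyte chemoattractant branch, and Ccl2 draws monocytes that carry the receptor Ccr2 into injured liver. Ccl3, Ccl4 and Ccl5 are inflammatory chemokines made by macrophages, neutrophils and lymphocytes. Ccl17 and Ccl22 are dendritic cell products that bind Ccr4 on T cells, and Ccl24 is an eotaxin that binds Ccr3 on eosinophils and is also made by macrophages. In the RefSeq annotation Ccl2 and Ccl7 are neighbours, as are Ccl12 and Ccl8 and as are Ccl3 and Ccl4, whose annotated spans overlap. All of these and Ccl5 lie on chromosome 11, Ccl22 and Ccl17 lie on either side of Cx3cl1 on chromosome 8, and Ccl24 lies next to Ccl26 on chromosome 5.

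RefSeq promoter entries (GRCm38.p6) were matched for 5 of the 10 members, namely Ccl3, Ccl8, Ccl12, Ccl17 and Ccl22. The 250 bases before the start of 4 of them are shown, 5′ to 3′ on the strand of the gene, because Ccl3 had the largest difference between CCl4 and oil livers and the other 3 were those with a match to a motif searched. Capitals mark matches to the motifs TATAAA (the core of a TATA box) and TTC and GAA with 4 bases between them (a palindrome of the kind STAT6 binds).
Ccl3 (chr11:83649379-83649628, minus strand): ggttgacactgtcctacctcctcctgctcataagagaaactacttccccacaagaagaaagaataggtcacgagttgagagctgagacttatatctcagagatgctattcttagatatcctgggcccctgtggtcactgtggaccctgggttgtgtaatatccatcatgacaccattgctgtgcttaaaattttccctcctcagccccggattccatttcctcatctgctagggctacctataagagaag
Ccl12 (chr11:82101595-82101844, plus strand): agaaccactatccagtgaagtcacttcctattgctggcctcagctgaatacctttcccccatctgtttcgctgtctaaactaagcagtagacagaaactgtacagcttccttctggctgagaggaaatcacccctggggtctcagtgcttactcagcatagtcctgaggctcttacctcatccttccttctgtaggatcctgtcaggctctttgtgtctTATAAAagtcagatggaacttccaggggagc
Ccl8 (chr11:82114935-82115184, plus strand): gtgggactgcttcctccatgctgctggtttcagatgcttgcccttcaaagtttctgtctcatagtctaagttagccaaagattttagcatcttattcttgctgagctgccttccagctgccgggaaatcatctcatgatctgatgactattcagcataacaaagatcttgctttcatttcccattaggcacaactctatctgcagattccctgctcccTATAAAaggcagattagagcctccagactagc
Ccl17 (chr8:94810203-94810452, plus strand): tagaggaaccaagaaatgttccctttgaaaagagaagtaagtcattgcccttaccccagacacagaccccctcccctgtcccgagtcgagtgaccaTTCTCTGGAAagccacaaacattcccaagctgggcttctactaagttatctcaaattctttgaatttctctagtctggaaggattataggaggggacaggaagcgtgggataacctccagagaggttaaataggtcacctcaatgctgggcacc

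The neighbours Ccl12 and Ccl8 each held TATAAA, beginning 31 and 32 bases before the start, a motif that 12.4% of the 32841 promoter windows of this length held on either strand. Ccl17 held the palindrome beginning 154 bases before its start, as did 5.85% of windows, and the other matched members held neither motif. The consensus of NF-κB (3.90% of windows) and the AP-1 motif TGANTCA (6.75%) were also searched on both strands and matched none of the 5 windows, which says only that these letters are not in these bases. The sequences are those of the C57BL/6J reference and not of the Balb/c mice measured.

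None of the 10 CC chemokines differed between CCl4 and oil livers at a limma adjusted p under 0.05, in either direction. Of all 23332 probe sets, 0.720% passed that threshold, 147 higher and 21 lower, so that a count of 0 among 10 lies at the background. At an unadjusted limma p under 0.05 only Ccl2 passed, 1 of 10 against 11.3% of all probe sets (7.03% higher, 4.27% lower). The methods' t-test also gave 1 of 10 against 10.8% unadjusted, and 0 of 10 against 0.0600% after Benjamini-Hochberg adjustment. With the cutoffs that the study used, a fold above 1.6 and an unadjusted p under 0.05, no member passed in either direction. All probe sets passed them in 2.56% of cases as higher and 0.819% as lower with limma, and in 2.34% and 0.664% with the methods' t-test. The median log2 fold change of the 10 members was -0.0095, beside 0.0078 over all probe sets, and 4 members lay above 0. No member had its CCl4 and oil livers fully apart, whereas 2.73% of probe sets had all CCl4 livers above all oil livers and 1.16% had them below.

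**Figure D1:**
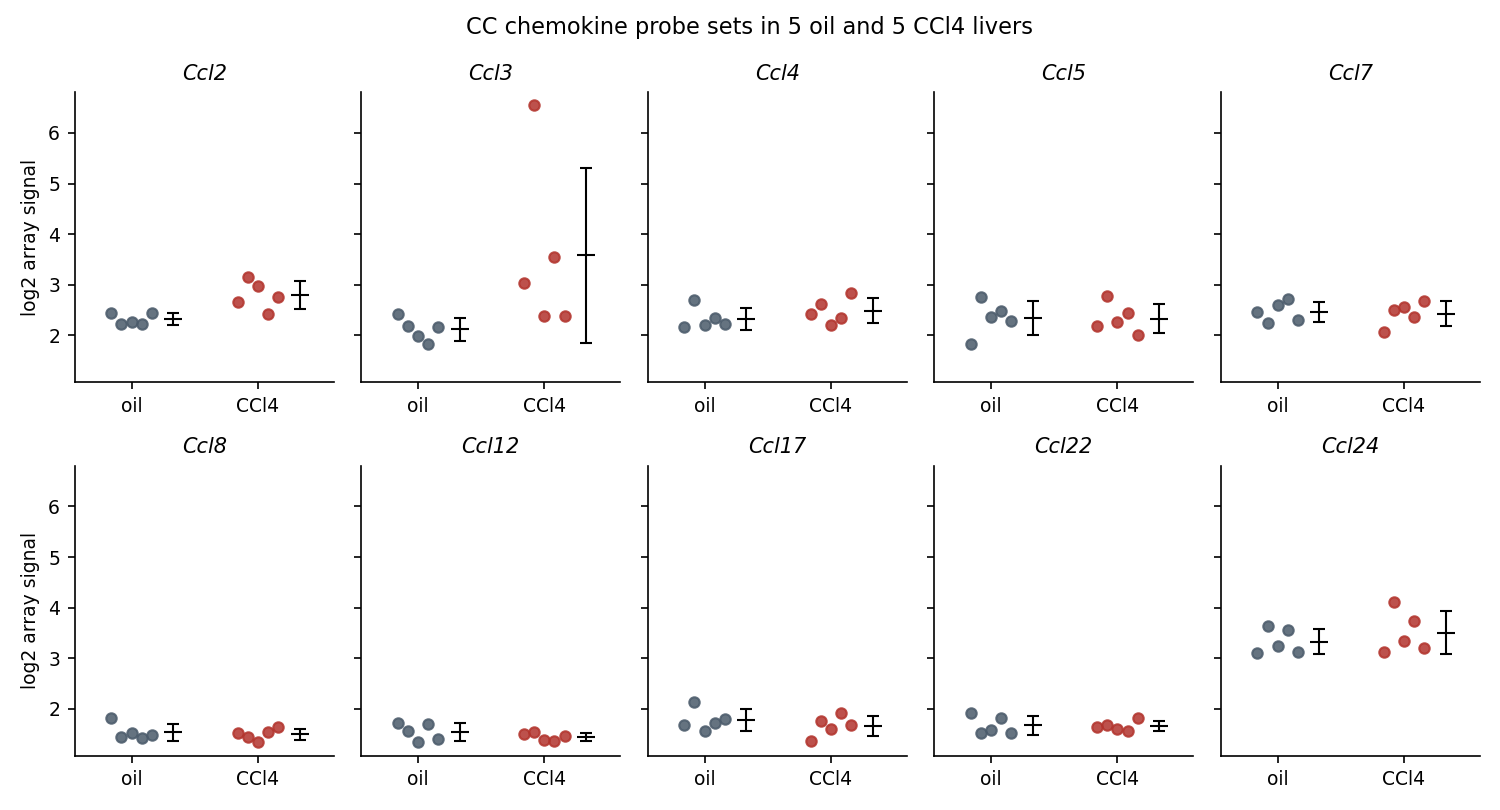
Log2 array signal of each CC chemokine in 5 oil livers (grey points) and 5 CCl4 livers (red points), with points placed from replicate 1 on the left to replicate 5 on the right and the bar beside them giving the mean ± SD. The groups overlap in every panel, the Ccl3 panel has 1 CCl4 liver at 6.55 far above the others, and Ccl8, Ccl12, Ccl17 and Ccl22 stay below 2.22 in all 10 livers.

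Most members gave a dim signal. No detection calls were used here, so the 713 probe sets of olfactory receptor genes, a class known chiefly from the nose, were taken as a reference for genes that liver is not known for. Their mean log2 values ran from 1.10 at the 5th percentile to 2.22 at the 95th. Ccl8, Ccl12, Ccl17 and Ccl22 lay below 2.22 in every one of the 10 livers. Ccl2 and Ccl24 lay above it in all 10, and Ccl3 lay above it in all 5 CCl4 livers but in 1 of 5 oil livers. Ccl4 and Ccl5 lay on both sides of it within each group, and Ccl7 lay above it in all 5 oil livers and in 4 of 5 CCl4 livers. Background differs between probe sets, so these positions do not rank the genes against one another, and array signals near background understate a fold change.

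Among the monocyte chemoattractants, Ccl2 was the member with the smallest p. Its log2 values were 2.65, 3.15, 2.97, 2.43 and 2.76 in CCl4 replicates 1 to 5 and 2.44, 2.23, 2.26, 2.23 and 2.44 in oil replicates 1 to 5. Of the CCl4 livers 4 lay above every oil liver, and CCl4 replicate 4 lay just under the highest oil liver. The mean was 2.79 ± 0.28 (SD, n = 5) in CCl4 livers and 2.32 ± 0.11 (SD, n = 5) in oil livers. The log2 fold change was 0.47 ± 0.13 (SE). This corresponds to a 1.39-fold difference with a 95% confidence interval from 1.13 to 1.70. The limma adjusted p was 0.157 over all probe sets, with an unadjusted p of 0.00472. A two-sided exact permutation test over the 10 livers gave an unadjusted p of 0.0238, where the smallest that 252 splits allow is 0.00794. Without CCl4 replicate 4 the log2 fold change was 0.56 (limma adjusted p = 0.0854), the lowest adjusted p with 1 liver left out.

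The other members of this branch showed no clear difference from the controls in array signal. Ccl7, which also draws monocytes, was 2.43 ± 0.24 (SD, n = 5) in CCl4 livers and 2.47 ± 0.19 (SD, n = 5) in oil livers. Its lowest liver was CCl4 replicate 1 at 2.06 and its highest oil replicate 4 at 2.71, and its log2 fold change of -0.04 had a 95% confidence interval from -0.33 to 0.26. Ccl8 ranged from 1.35 to 1.64 in CCl4 livers and from 1.43 to 1.83 in oil livers, where oil replicate 1 stood above the other 4. Ccl12, a mouse chemokine closely related to Ccl2, ranged from 1.37 to 1.53 and from 1.33 to 1.72. Their log2 fold changes were -0.04 and -0.10, and the 95% confidence intervals ended at 0.17 and 0.11 on the upper side, or 1.13-fold and 1.08-fold. Both probe sets lay below the olfactory 95th percentile of 2.22 in every liver. These bounds therefore describe array signal near background and do not show that the RNA was unchanged. Ccl2 was thus the 1 member of 4 in this branch with a confidence interval above 0, while its neighbour Ccl7 lay on the other side of 0. Whether Ccl2 and Ccl7 differed in their response was not tested.

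Ccl3, a macrophage and neutrophil chemokine, had the largest log2 fold change of the 10 and the widest spread. Its values were 3.04, 6.55, 2.38, 3.54 and 2.39 in CCl4 replicates 1 to 5 and 2.42, 2.19, 1.98, 1.82 and 2.17 in oil replicates 1 to 5. CCl4 replicate 2 exceeded the mean of the remaining 4 by 3.71, replicates 1 and 4 also lay above every oil liver, and replicates 3 and 5 lay just under the highest oil liver. The mean was 3.58 ± 1.73 (SD, n = 5) against 2.12 ± 0.23 (SD, n = 5). The log2 fold change of 1.46 ± 0.69 (SE), or 2.75-fold with a 95% confidence interval from 0.957 to 7.93, did not pass (limma adjusted p = 0.467). Without CCl4 replicate 2 it was 0.72, with a 95% confidence interval from 0.17 to 1.27 (limma adjusted p = 0.333). The two-sided exact permutation test over all 10 livers gave an unadjusted p of 0.0238.

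Ccl4, the chemokine encoded beside Ccl3, did not share the high value. Its values were 2.42, 2.62, 2.21, 2.35 and 2.84 in CCl4 replicates 1 to 5 and 2.17, 2.69, 2.20, 2.34 and 2.23 in oil replicates 1 to 5. CCl4 replicate 2, at 6.55 for Ccl3, was at 2.62 for Ccl4 and below oil replicate 2. The log2 fold change of Ccl4 was 0.16 ± 0.14 (SE), with a 95% confidence interval from -0.15 to 0.47 (limma adjusted p = 0.761). Ccl5, a ligand of Ccr1 best known from T cells, ranged from 2.002 to 2.77 in CCl4 livers and from 1.82 to 2.76 in oil livers. Its log2 fold change was -0.01 with a 95% confidence interval from -0.42 to 0.40, and replicate 2 was the highest liver in both groups.

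**Figure D2:**
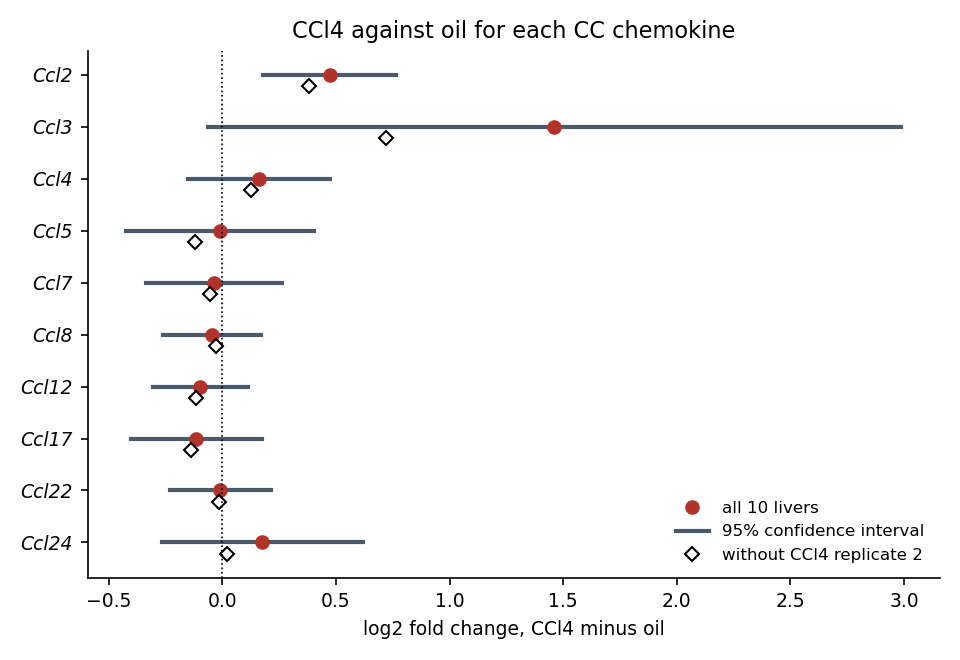
Log2 fold change (CCl4 minus oil) of each CC chemokine in the limma fit over all 10 livers (red points) with its 95% confidence interval (grey lines), and the value without CCl4 replicate 2 (open diamonds). The interval lies above 0 for Ccl2, and leaving out that 1 liver moves Ccl3 from 1.46 to 0.72 and Ccl24 from 0.18 to 0.023.

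The ligands of Ccr4 and Ccr3 did not pass either. Ccl17 ranged from 1.37 to 1.92 in CCl4 livers and from 1.56 to 2.13 in oil livers, and its log2 fold change was -0.11 with a 95% confidence interval from -0.40 to 0.17. Ccl22 ranged from 1.56 to 1.82 and from 1.52 to 1.92, a log2 fold change of -0.01 with a 95% confidence interval from -0.23 to 0.21. The array signal of both groups overlapped almost completely for these dendritic cell chemokines. Both probe sets lay below the olfactory 95th percentile of 2.22 in every liver, so this does not show that the RNA was unchanged. Ccl24 was brighter on its probe set, at 3.12, 4.12, 3.35, 3.74 and 3.21 in CCl4 replicates 1 to 5 and 3.10, 3.63, 3.24, 3.55 and 3.13 in oil replicates 1 to 5. CCl4 replicates 2 and 4 lay above every oil liver and the other 3 lay within the oil range. Its log2 fold change was 0.18 ± 0.20 (SE; limma adjusted p = 0.838), and without CCl4 replicate 2 it was 0.023.

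CCl4 replicate 2 was the highest CCl4 liver for 5 of the 10 members, Ccl2, Ccl3, Ccl5, Ccl12 and Ccl24, and CCl4 replicate 5 was the highest for 4. The share of all probe sets that were highest in each liver was not computed, so these counts have no background beside them. With group means removed, the array signals of the members did not vary as 1 block. Ccl8, Ccl12, Ccl17 and Ccl22 lay below the olfactory 95th percentile of 2.22 in every liver. Pairs that include any of them describe signal near background. Over the 45 pairs of members, Pearson's r across the 10 livers ranged from -0.74 to 0.86 with a median of 0.13, as a description over arrays that share their hybridisation and normalization. The highest r was that of Ccl5 and Ccl24 at 0.86, which was 0.88 without the 2 livers that lay farthest out for Ccl5, and Ccl12 and Ccl22 followed at 0.75 (0.73 without the 2 farthest out for Ccl12). Ccl3 and Ccl24 had an r of 0.73, which was 0.39 without the 2 livers that lay farthest out for Ccl3, and the lowest r was that of Ccl5 and Ccl8 at -0.74.

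The liver with the high Ccl3 value also stood out for leukocyte and matrix genes. S100a8, a calcium-binding protein of neutrophils, was at 1.91, 4.60, 2.04, 3.13 and 1.72 in CCl4 replicates 1 to 5 and between 1.20 and 1.73 in oil livers. Retnlg, another neutrophil gene, was at 4.05 and 4.36 in CCl4 replicates 2 and 4 and at most 2.16 in the other 3. CCl4 replicates 2 and 4, the 2 highest livers for Ccl3, were also the 2 highest CCl4 livers for 4 of the 10 neutrophil markers, S100a8, Retnlg, Ngp and Cxcr2, and not for the other 6. The same 2 livers were also highest for genes outside this list, among them Ccl24 and Tlr4, and the share over all probe sets was not computed. Camp, a granule protein, was at 2.80 and 2.73 in these livers and higher in CCl4 replicates 3 and 5 at 3.12 and 3.27, and S100a9 was at 4.17 in CCl4 replicate 2 but at 1.98 in replicate 4. Cd14, the lipopolysaccharide co-receptor of monocytes and macrophages, was highest in the same 2 livers at 6.82 and 5.67, and Col1a1 was highest in CCl4 replicate 2 at 8.34. Over the neutrophil list, with 10 of 10 markers measured, the summed linear signal ran from 42.7 to 100.4 in CCl4 livers and from 37.7 to 39.98 in oil livers, and 0 of 10 passed the limma threshold. At an unadjusted limma p under 0.05, 4 of 10 were called and all 4 were higher, beside 7.03% of all probe sets higher. For 3 of the 10, all CCl4 livers lay above all oil livers, as they did for 2.73% of all probe sets. Elane and Mpo, which define neutrophil precursors, lay between 1.66 and 2.69 in all livers. The summed signal of 10 measured monocyte and macrophage markers ran from 452 to 2803 in CCl4 livers and from 164 to 254 in oil livers, with 5 of 10 higher, among them Gpnmb by 5.99 and Clec7a by 3.61. Whole tissue cannot tell more cells of a type from more RNA per cell, and the part of these cells in the Ccl3 values was not tested.

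**Figure D3:**
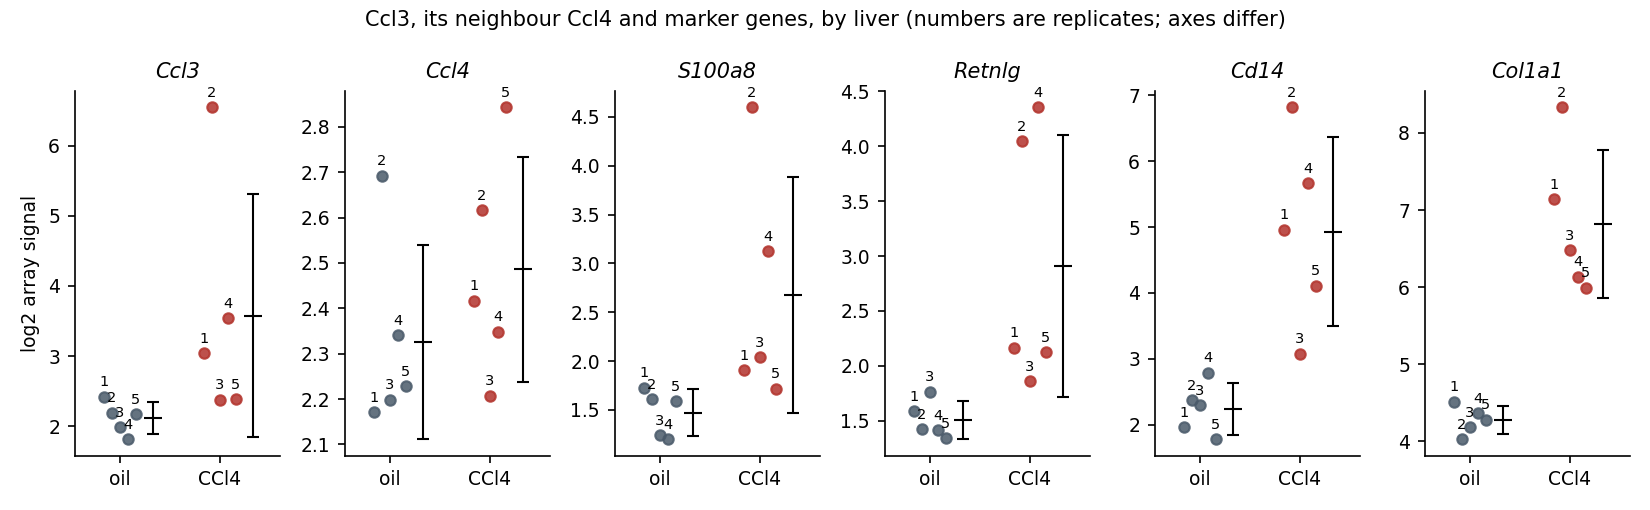
Log2 array signal of Ccl3, of its neighbour Ccl4 and of 4 marker genes in oil (grey) and CCl4 (red) livers, with the replicate number above each point and the bar giving the mean ± SD; each panel has its own axis. CCl4 replicate 2 is highest for Ccl3 (6.55), S100a8 (4.60), Cd14 (6.82) and Col1a1 (8.34) but not for Ccl4, and CCl4 replicates 2 and 4 are the highest for Retnlg.

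The receptors that read these ligands were described as a list, of which 12 had a probe set of their own. None passed the limma threshold, and the median log2 fold change was 0.059. At an unadjusted limma p under 0.05, 3 of 12 were called and all 3 were higher, beside 7.03% of all probe sets higher. Ccr2, the receptor of Ccl2, Ccl7 and Ccl12 on monocytes, was at 4.003, 4.71, 3.19, 2.97 and 2.40 in CCl4 replicates 1 to 5 and at 1.85, 1.89, 1.49, 1.996 and 1.47 in oil replicates 1 to 5. All 5 CCl4 livers lay above all 5 oil livers, as they did for 2.73% of all probe sets. The log2 fold change was 1.71 ± 0.37 (SE), or 3.28-fold with a 95% confidence interval from 1.85 to 5.82, and the limma adjusted p was 0.0743. Ccr2 passed without CCl4 replicate 5 (limma adjusted p = 0.0247) and among the brighter probe sets (0.0393), and leaving out any other liver gave an adjusted p up to 0.199.

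A further pair of receptors lay higher without passing. Ccrl2, an atypical receptor of activated leukocytes, was at 2.86 ± 0.50 (SD, n = 5) and 2.17 ± 0.19 (SD, n = 5) in CCl4 and oil livers, with a log2 fold change of 0.69 (limma adjusted p = 0.217). Ccr1, the receptor of Ccl3 and Ccl5, was at 2.23 in CCl4 replicate 2 and between 1.37 and 1.43 in the other CCl4 livers, against 1.08 to 1.39 in oil livers. Its log2 fold change was 0.39 (limma adjusted p = 0.403) and fell to 0.22 without CCl4 replicate 2. Ccr1 lay below the olfactory 95th percentile of 2.22 in every liver except CCl4 replicate 2, so its difference is one of signal near background. Ccr4, which binds Ccl17 and Ccl22, lay at 1.12 and 1.18 in CCl4 and oil livers, and Ccr3, which binds Ccl24, at 5.33 and 5.76. Ccr4 also lay below 2.22 in every liver. Ackr2, a scavenger that removes inflammatory CC chemokines, had a log2 fold change of 0.53 and a 95% confidence interval from -0.08 to 1.15.

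**Figure D4:**
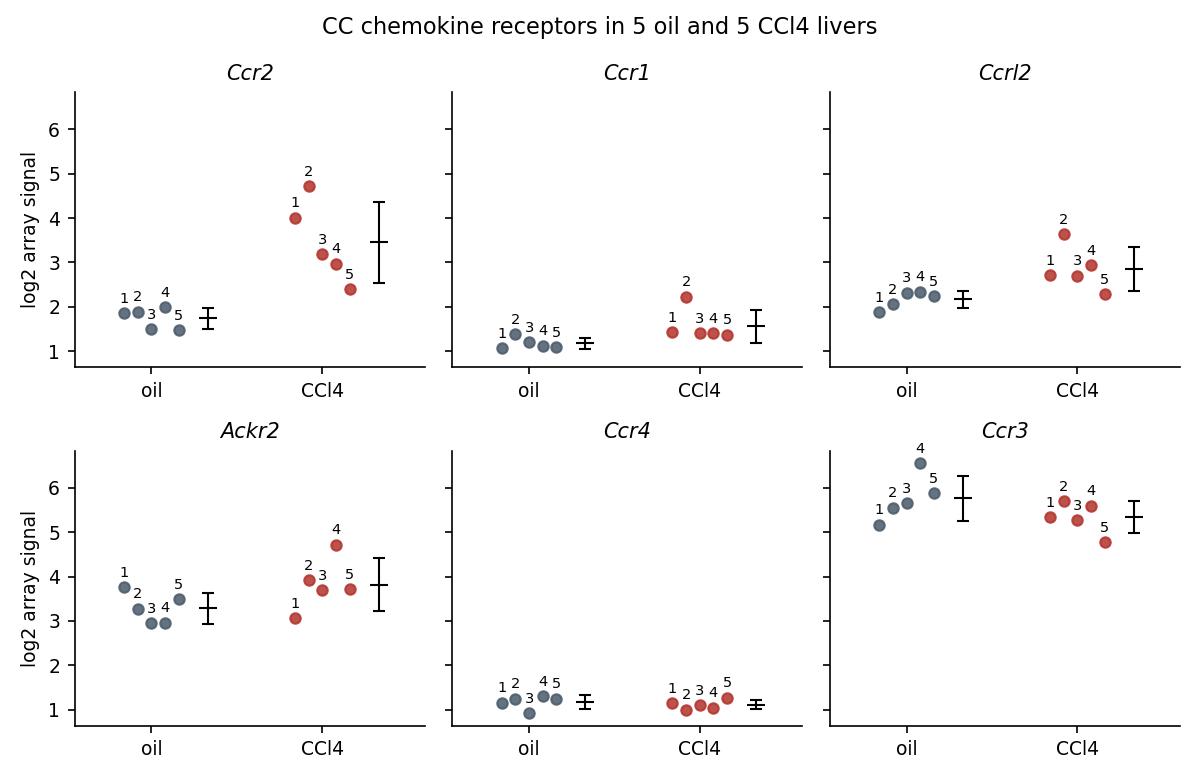
Log2 array signal of 6 CC chemokine receptors in oil (grey) and CCl4 (red) livers, with replicate numbers above the points and bars giving the mean ± SD. The groups are apart for Ccr2, where CCl4 livers run from 2.40 to 4.71 and oil livers from 1.47 to 1.996, and overlap for the other 5.

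Of 13 other CC chemokines listed, 7 had a probe set of their own and 0 passed, with 0 of 7 at an unadjusted limma p under 0.05. The 3 with the smallest p were Ccl28, a mucosal chemokine, at -0.22, Ccl25, a ligand of Ccr9, at -0.23 and Ccl1, a ligand of Ccr8, at 0.10, and the list median was -0.13. Of 13 measured genes of NF-κB and Toll-like receptor signalling, which drives many CC chemokines, 0 passed, with a median of 0.26. At an unadjusted limma p under 0.05, 4 were called and all 4 were higher, beside 7.03% of all probe sets higher. Tnfaip3, an inhibitor that NF-κB itself induces, had all 5 CCl4 livers (2.76 to 3.43) above all 5 oil livers (2.45 to 2.52), as did 2.73% of all probe sets. Its log2 fold change was 0.50 (limma adjusted p = 0.133). Tlr4, the lipopolysaccharide receptor, was 0.91 higher (0.239) and its adaptor Myd88 0.36 higher (0.375), the values in brackets being limma adjusted p. Of 11 measured genes of the type 2 cytokine response, which induces Ccl17, Ccl22 and Ccl24 in macrophages, 0 passed. Chil3, a chitinase-like protein of alternatively activated macrophages, was 0.41 higher (limma adjusted p = 0.340), Stat6 0.10 and Retnla 0.09 higher, and Il4 and Il13 lay between 1.31 and 1.97 in all livers.

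In the marker lists of the cells that the other members act on or come from, no gene passed the limma threshold, while single genes differed at an unadjusted p under 0.05. Of all probe sets, 7.03% were higher and 4.27% lower at that unadjusted limma p. All CCl4 livers lay above all oil livers for 2.73% of all probe sets, the background of the genes given as apart here. Of 7 measured dendritic cell markers 0 passed, with a summed signal from 35.3 to 47.4 in CCl4 livers and from 36.2 to 38.5 in oil livers. Only 3 of the 7 had a log2 fold change above 0, and the list median was -0.021. Cd209a, a lectin of monocyte-derived dendritic cells, had all CCl4 livers above all oil livers, with a log2 fold change of 0.39 (limma adjusted p = 0.112). Of 7 measured eosinophil and mast cell markers 0 passed, with sums from 22.1 to 26.1 and from 21.4 to 24.0. Their list median was 0.0042, and Siglecf, an eosinophil lectin, had a log2 fold change of 0.45 (limma adjusted p = 0.287). The mast cell protease Cpa3 had its groups apart at 0.17 (0.442). It lay between 1.25 and 1.67 in all livers, below the olfactory 95th percentile of 2.22. Of 10 measured T and NK cell markers 0 passed, with sums from 36.2 to 40.8 and from 38.2 to 44.0. Of 8 Kupffer cell markers 0 passed, with sums from 365 to 823 and from 405 to 583. Of these Cd207 was apart at 0.89 (limma adjusted p = 0.0957), Folr2 lay at 0.47 (0.413) and Timd4, a receptor of resident Kupffer cells, at -0.45 (0.321). Beside these lists, the 5 higher genes of 10 in the macrophage list stood against 0.630% of all probe sets higher, and 5 of 9 stellate cell and fibroblast markers were higher, among them Col1a2 and Col1a1. None of 4 measured B cell markers passed, but their sums did not overlap, from 20.1 to 23.4 in CCl4 livers and from 17.0 to 18.6 in oil livers, and Cd22 was apart at 0.38 (limma adjusted p = 0.0666). None of 6 sinusoidal endothelial markers passed and 4 of the 6 lay above 0, with Lyve1 at 2.14 (0.213) and Pecam1 at 0.64 (0.220). Nor did any of 4 hepatocyte markers pass, with Cyp2e1 at -0.22 (0.401). The part of these cells in the chemokine values was not tested.

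Genes whose deviations from the group means ran most like those of a member over the 10 livers are given as a description, chosen for their likeness. For Ccl3 these were Plau, the urokinase plasminogen activator (r = 0.99, Spearman's rho 0.94), and Mmp13, a collagenase (r = 0.98, rho 0.84). Without the 2 livers farthest out for Ccl3, CCl4 replicates 2 and 3, the r values were 0.94 and 0.92. For Ccl2 they were Ccl20 (r = 0.96, rho 0.92) and Rnaseh2c (r = 0.94, rho 0.98), and for Ccl24 Calhm5 and Slc25a36 (r = 0.97 and 0.95). Ccl20 lay between 1.33 and 1.96 in all 10 livers, below the olfactory 95th percentile of 2.22. For Ccl8 and Ccl22 the nearest genes included the olfactory receptors Olfr700 and Olfr1294, with r of 0.95 and 0.91.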

How the data were processed

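Whole-liver RNA of 5 CCl4 and 5 oil mice was hybridised to Affymetrix whole-transcript arrays, Mouse Exon ST by the series design and probe table, Mouse Gene ST by the methods of the study. The authors deposited 1 log2 value per probe set and array. The scale was inferred from the largest value, 13.4, and background correction, normalization and summarisation are not given in the sources used here. Array medians ran from 2.54 to 2.66, arrays correlated with r from 0.959 to 0.990, and precision is limited by how few arrays there were. No scan dates were used here.

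No further normalization was applied. The CCl4 and oil groups were compared in limma (lmFit and eBayes, version 3.58.1, under R 4.3.3) over all 23332 probe sets with Benjamini-Hochberg adjustment, and calls were made at 0.05. Probe sets were named by the platform annotation (14996 with 1 symbol, 1019 with several, 7317 with none). The platform gene identifiers of all 10 members matched a RefSeq table of GRCm38.p6, used for names and gene order. Arrays are called biological replicates in the labels, and p-values measure the spread between these arrays. The members and gene lists were chosen with earlier results of these data known. All members are named, and of each context list the genes past the threshold or else the 3 with the smallest p. Of each marker list up to 2 genes past the threshold are named by rule. The other genes named, Cd14, S100a8, S100a9, Ngp, Cxcr2, Camp, Cd209a, Siglecf, Cpa3, Cd207, Folr2, Timd4, Cd22, Lyve1, Pecam1, Cyp2e1, Retnlg, Elane, Mpo, Alb, Ttr, Ccr3, Ccr4, Ackr2, Il4 and Il13, were chosen after their values were seen. The fit was tested on simulated data. The alternatives tried were a replicate block, 2 scalings, a filter on dim probe sets, array weights, the methods' t-test, Welch's test, a clock covariate (Dbp minus Arntl), all probe sets of a gene, the study's thresholds, single-gene permutation and leaving out each array. Counts with the study's thresholds and the t-test, and the olfactory receptor reference, were added after seeing the data.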

Additional observations from a re-analysis of the deposited data

Results flagged for a closer look

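Of 52 groups of 5 livers examined for the named genes, 7 held a liver whose gap to the nearest other exceeded Dixon's critical value, where chance gives about 1 in 20. Ccl3 was at 6.55 in CCl4 replicate 2, with the next liver at 3.54. Ccl8 was at 1.83 in oil replicate 1, with the next at 1.52. Ccr1 was at 2.23 in CCl4 replicate 2, with the next at 1.43, and Col1a2 was at 8.47 in the same liver, with the next at 7.09. Tlr4 was at 2.74 in oil replicate 4, Stat6 was lowest at 5.57 in oil replicate 1 and Retnla was at 1.38 in CCl4 replicate 1. Of the 7, 3 lay in CCl4 replicate 2.

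The probe set that the platform assigns to both Ccl6 and Ccl9, macrophage chemokines encoded side by side, stood outside the comparisons because it names no single gene. It was at 6.59, 7.22, 5.64, 8.04 and 5.69 in CCl4 replicates 1 to 5 and between 4.29 and 5.03 in oil livers. All CCl4 livers thus lay above all oil livers, as they did for 2.73% of all probe sets. The log2 fold change was 1.89 ± 0.42 (SE; limma adjusted p = 0.0841), the largest among the CC chemokine probe sets examined. The probe set of Ccl9 alone had a log2 fold change of -0.17 with a 95% confidence interval from -0.68 to 0.34. Which of the 2 genes moved the shared probe set was not tested.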

How the results depend on the processing

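No CC chemokine member passed at an adjusted p under 0.05, or at the study's thresholds, in the alternatives that give them. The exact permutation test of single genes, unadjusted, gave p = 0.0238 for Ccl2 and for Ccl3 and over 0.05 for the other 8 members. In addition, no sign of a member turned with quantile normalization or median centring. The signs of 4 members with differences near 0 turned elsewhere. Ccl22 was at 0.036 with array weights, and Ccl5 and Ccl7 were at 0.0016 and 0.024 with the clock covariate. With 1 liver left out Ccl5 ran from -0.14 to 0.093, Ccl7 from -0.10 to 0.057, Ccl8 from -0.080 to 0.029 and Ccl22 from -0.048 to 0.054. Among the brighter probe sets only Ccl3 and Ccl24 of the members were left, with a median of 0.82, and 1 receptor, Ccr2, passed, as it did when CCl4 replicate 5 was left out (0 to 1 receptors over the 10 livers). The count of members could not fall below 0, so its constancy is no measure of stability. With 1 liver left out, the log2 fold change of Ccl3 ran from 0.72 to 1.76 and the limma adjusted p of Ccl2 from 0.0854 to 0.306. The background counts depended on the setting too. Against 147 higher and 21 lower probe sets, the counts were 30 and 6 with the replicate block, 12 and 2 with the methods' t-test, 0 and 0 with Welch's test, 45 and 9 with the clock covariate, and 251 and 47 among the brighter probe sets. Quantile normalization gave 192 and 39, and median centring 145 and 36. The study's thresholds gave 597 and 191 with limma and 545 and 155 with the t-test. Leaving out 1 liver gave 30 (without oil replicate 3) to 259 (without CCl4 replicate 5) higher and 5 to 40 lower in the same livers. Whether the replicate numbers pair the livers could not be decided. Deviations of same-numbered livers had r from -0.043 to 0.16, and 2 of 5 CCl4 livers correlated best with their own number. Such weak correlations can neither show nor exclude a pairing. The cause of these shifts was not tested. All 10 members had 1 probe set each, so that averaging probe sets changed none. Signals near background limit what a fold change of the dimmer members can show.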
